A study of Homo sapiens with 12 samples.

Results

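The MCM helicase and its loaders were followed here as 10 genes: MCM2, MCM3, MCM4, MCM5, MCM6, MCM7, CDC6, CDT1, CDC45 and MCM10. They were chosen by name for their role in starting DNA replication, and each of the 10 symbols was found once among the 15090 genes listed in the deposited RNA-seq table. All 10 also passed the filter on low values, which kept 12789 genes for testing and left out 2301. MIA PaCa-2, an established human pancreatic cancer cell line labelled wild type, was grown in RPMI-1640 and studied in glutamine-free RPMI 1640 to which L-glutamine was added back. The design names biological triplicates, and 4 groups of 3 libraries were made at 48 h: 40 mM glutamine with 0.5 µM gemcitabine, 2 mM glutamine with 0.5 µM gemcitabine, 40 mM glutamine without gemcitabine, and 2 mM glutamine without gemcitabine. Gemcitabine is a deoxycytidine analogue that is built into DNA, stops chain elongation and inhibits ribonucleotide reductase. The comparisons ask how the drug and the glutamine supply each change the transcripts of these genes, and whether the change with the drug depends on the glutamine supply.

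MCM2 to MCM7 form a ring of 6 different subunits that unwinds DNA ahead of the replication fork. In late mitosis and G1, the origin recognition complex and CDC6 bind an origin, and CDT1 brings the MCM ring to it, a step called licensing. In S phase, CDC45 and the GINS complex join the loaded ring to make the active helicase, and MCM10 is needed for that helicase to start unwinding. In cycling human cells these genes are transcribed mainly around the G1 to S transition under the control of E2F transcription factors, and CDT1 protein is destroyed in S phase.

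The libraries held 21723094 to 32811746 reads assigned to listed genes, and each member had 784 to 22335 reads in each library. Levels are given as RPM, recovered from the deposited log2(RPM + 1) values: reads of a gene per 1000000, after a scaling of each library by the authors. The listed genes' RPM therefore sum to 971668 to 1021041 per library and not to 1000000. A difference is on that deposited log2 scale with its standard error, and was called at an adjusted p under 0.05 by limma with Benjamini-Hochberg adjustment over all 12789 genes. KRT8 (1355 to 2357 RPM), KRT18 and VIM, markers of the epithelial and mesenchymal character of the line, were high in all libraries, while COL1A1, a fibroblast marker, was at 0.423 to 1.61 RPM and COL3A1, another, at 11.1 to 15.6 RPM. EPCAM, CDH1 and the leukocyte, acinar and islet markers looked for were not among the listed genes. No source used here states a strand setting, and reads from overlapping genes on opposite strands cannot then be told apart. An antisense gene covers 30.7% of the MCM2 exon bases and AP4M1 covers 10.7% of those of MCM7.

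Promoter sequences are shown for CDC6 and CDT1, the loaders, of which CDC6 was called with glutamine alone and CDT1 was not, for MCM6, the ring subunit with the smallest drug difference, and for MCM10, whose window holds none of the searched E2F-type letters. Each window runs from 250 bases before to 50 bases after a gene start in RefSeq (GRCh38.p14) and is written 5′ to 3′ on the strand of the gene. The windows are chr17:40287629-40287928 (plus strand) for CDC6, chr16:88803539-88803838 (plus strand) for CDT1, chr2:135876394-135876693 (minus strand) for MCM6 and chr10:13161308-13161607 (plus strand) for MCM10. Capitals mark matches, on either strand, to 4 E2F-type motifs, TTTGGCGC, TTTGCCGC, TTTCGCGC and TTTCCCGC.

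CDC6: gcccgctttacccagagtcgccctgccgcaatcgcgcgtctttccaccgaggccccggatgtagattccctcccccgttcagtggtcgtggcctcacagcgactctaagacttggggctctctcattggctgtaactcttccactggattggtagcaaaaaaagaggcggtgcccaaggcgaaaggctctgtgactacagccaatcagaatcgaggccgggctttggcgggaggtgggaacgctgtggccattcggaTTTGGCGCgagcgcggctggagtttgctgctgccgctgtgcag

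CDT1: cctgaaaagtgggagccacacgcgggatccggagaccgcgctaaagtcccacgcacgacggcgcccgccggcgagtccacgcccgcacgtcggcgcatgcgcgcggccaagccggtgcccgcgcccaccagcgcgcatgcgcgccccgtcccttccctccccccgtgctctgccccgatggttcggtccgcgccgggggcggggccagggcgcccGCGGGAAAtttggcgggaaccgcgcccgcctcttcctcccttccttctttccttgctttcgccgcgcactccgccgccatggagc

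MCM6: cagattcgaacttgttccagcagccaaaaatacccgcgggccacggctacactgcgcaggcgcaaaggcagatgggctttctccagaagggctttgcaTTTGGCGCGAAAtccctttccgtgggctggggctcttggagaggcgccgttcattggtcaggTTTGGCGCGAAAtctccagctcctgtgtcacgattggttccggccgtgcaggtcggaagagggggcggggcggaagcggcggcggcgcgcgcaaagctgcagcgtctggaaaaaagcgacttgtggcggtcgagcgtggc

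MCM10: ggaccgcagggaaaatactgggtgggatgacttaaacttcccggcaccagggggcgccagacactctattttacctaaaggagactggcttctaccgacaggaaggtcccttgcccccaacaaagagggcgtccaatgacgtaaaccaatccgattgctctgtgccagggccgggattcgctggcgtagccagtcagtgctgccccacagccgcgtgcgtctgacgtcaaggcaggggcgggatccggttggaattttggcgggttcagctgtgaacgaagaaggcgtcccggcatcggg

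In the CDC6 window the match lay at bases +8 to +15, counted from +1 at the gene start, and in the CDT1 window at −35 to −28 on the opposite strand. The MCM6 window held 4 matches that overlap in pairs, at −152 to −141 and at −90 to −79. RefSeq promoter windows were found for 8 of the 10 members, and 6 of those 8 genes (75.0%) held at least 1 match: MCM2, MCM3, MCM6, MCM7, CDC6 and CDT1. MCM10 and CDC45 held none, and MCM4 and MCM5 have no window in the table. The letters TTTGGCGG, which differ from TTTGGCGC in the last base, were not searched. They stand unmarked in the MCM10, CDC6 and CDT1 windows and in a CDC45 window. The letters of the searched E2F-type motifs stood in a window of 1090 of 27305 RefSeq genes (3.99%) and of 729 of 11102 genes of the deposited table (6.57%). Among the other lists used below they stood in 13 of 28 licensing and activation partners (46.4%), 10 of 22 other S phase genes (45.5%) and 3 of 42 G2/M genes (7.14%). The letters CCAAT, on either strand, stood in 6 of the 8 members (75.0%). They stood in 15 of 28 partners (53.6%), 15 of 22 other S phase genes (68.2%) and 30 of 42 G2/M genes (71.4%). The share was 39.7% of all genes and 42.2% of genes of the deposited table. A match describes the letters only and is not a measured site.

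Per length, in RPM per kilobase of merged GENCODE v29 exons, MCM7 was the most abundant member in every group, at 173 at 40 mM with gemcitabine, 189 at 2 mM with gemcitabine, 138 at 40 mM without it and 129 at 2 mM without it. MCM4 came next, with 110, 115, 86.4 and 75.0 RPM per kilobase in the same group order. MCM10 was lowest, with 12.1, 12.9, 8.72 and 7.10 RPM per kilobase. At 2 mM without the drug, MCM3 (60.3 to 61.8 RPM per kilobase) and MCM2 (58.2 to 62.5) overlapped between libraries, while CDT1 (32.7 to 33.1) lay just above MCM5 (29.4 to 32.6) and CDC6 (10.9 to 11.8) lay below CDC45 (15.6 to 16.9). The loader CDC6 was thus present at less than the level per length of each ring subunit in all 4 groups.

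**Figure D1:**
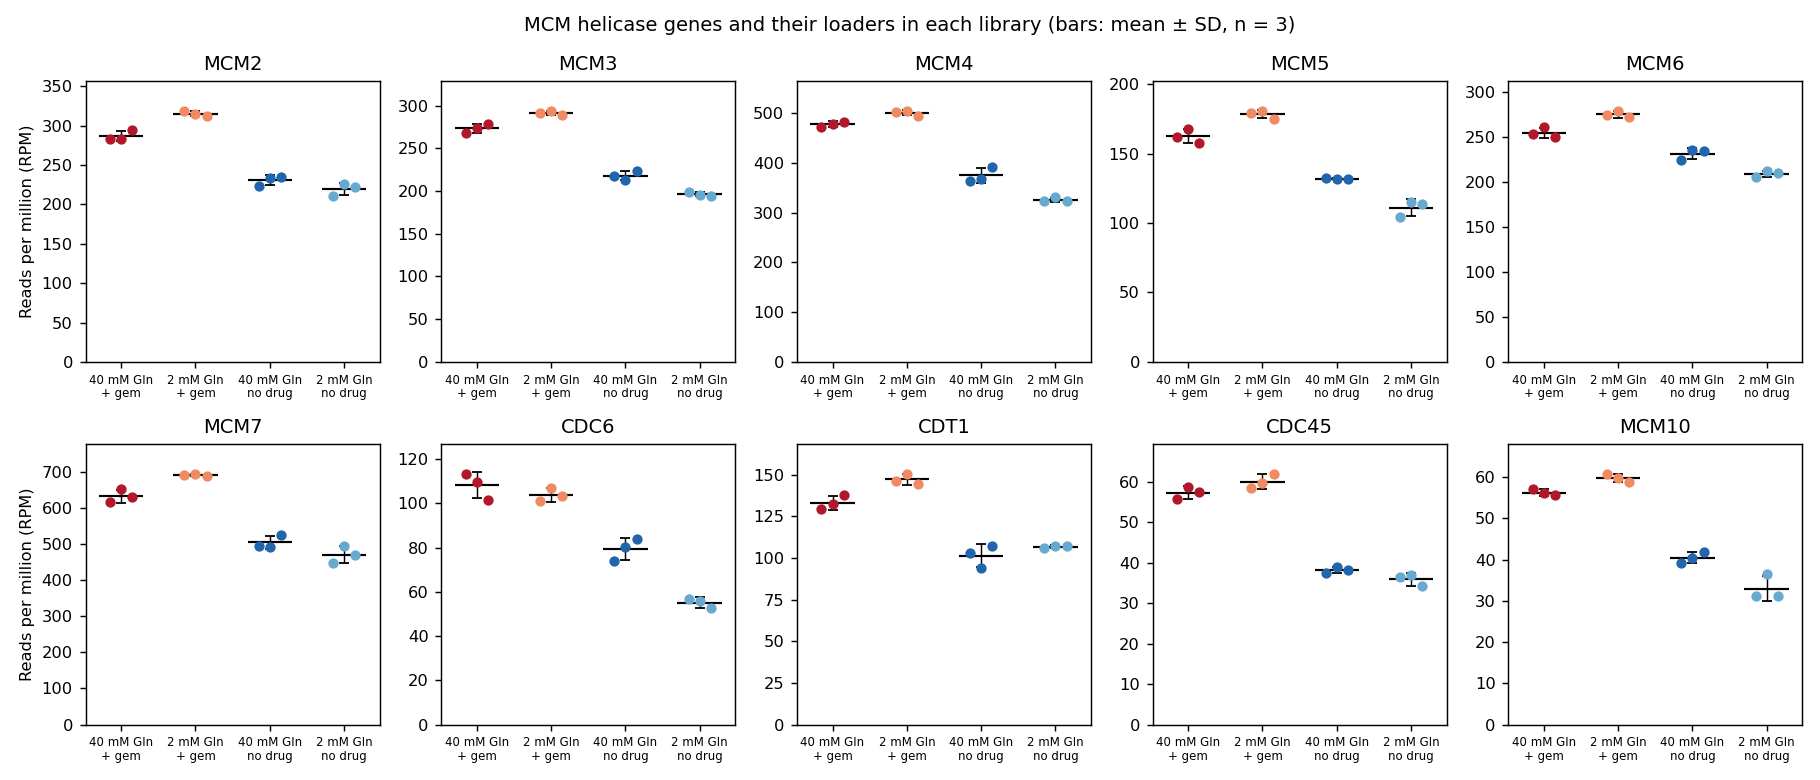
Level of each of the 10 genes in every library, in RPM, one panel per gene with its own axis, points for the 3 libraries of a group. In each panel the drug-treated libraries lie above all untreated ones, an order that at most 19.2% of tested genes can have. CDC6 has the largest log2 difference between the untreated groups (74.0 to 84.1 RPM at 40 mM, 52.6 to 57.0 RPM at 2 mM).

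All 6 ring subunits were higher with gemcitabine at both glutamine levels, and their highest levels were in the drug-treated cells at 2 mM glutamine. RNA was measured in bulk, so that more cells in the phase in which these genes are transcribed and more RNA per cell cannot be told apart. MCM2 had 283, 283 and 295 RPM at 40 mM with gemcitabine and 319, 314 and 312 RPM at 2 mM with gemcitabine, against 223, 234 and 235 RPM at 40 mM without it and 211, 226 and 222 RPM at 2 mM without it. The drug-treated libraries of each glutamine level were all above the untreated ones, which overlapped each other. MCM3 had 268, 274 and 278 RPM at 40 mM with the drug and 292, 294 and 289 RPM at 2 mM with it, against 217, 213 and 224 RPM at 40 mM untreated and 199, 196 and 194 RPM at 2 mM untreated. Here the 4 groups were all apart on the deposited scaling. MCM4 reached 472, 479 and 483 RPM at 40 mM with gemcitabine and 503, 504 and 495 RPM at 2 mM with gemcitabine, against 365, 369 and 392 RPM at 40 mM and 323, 331 and 324 RPM at 2 mM without it. Its order of groups was the same and, on that scaling, again no 2 groups overlapped.

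MCM5 had 162, 168 and 158 RPM at 40 mM with gemcitabine and 180, 181 and 175 RPM at 2 mM with gemcitabine, against 132, 132 and 132 RPM at 40 mM and 104, 115 and 114 RPM at 2 mM without the drug. It had the largest drug difference of the ring subunits at 2 mM. MCM6 had 253, 261 and 250 RPM at 40 mM with the drug and 275, 279 and 272 RPM at 2 mM with the drug, against 224, 236 and 235 RPM at 40 mM untreated and 206, 212 and 210 RPM at 2 mM untreated. It had the smallest drug difference of all 10 members at both levels. MCM7 had 616, 652 and 630 RPM at 40 mM with gemcitabine and 690, 695 and 689 RPM at 2 mM with gemcitabine, against 495, 492 and 526 RPM at 40 mM and 447, 494 and 469 RPM at 2 mM without it, where the untreated groups overlapped. Summed over the ring, the 6 subunits came to 2054 to 2117 RPM at 40 mM with the drug and 2231 to 2266 RPM at 2 mM with the drug, against 1657 to 1745 RPM at 40 mM and 1489 to 1574 RPM at 2 mM without it.

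The loader CDC6, an ATPase that acts with the origin recognition complex, had 113, 110 and 102 RPM at 40 mM with gemcitabine and 101, 107 and 103 RPM at 2 mM with gemcitabine, against 74.0, 80.4 and 84.1 RPM at 40 mM and 57.0, 56.1 and 52.6 RPM at 2 mM without it. Its drug-treated groups overlapped, and its untreated groups were well apart. CDT1, which carries the MCM ring to CDC6 at the origin, had 129, 132 and 137 RPM at 40 mM with gemcitabine and 146, 150 and 144 RPM at 2 mM with gemcitabine, against 103, 93.7 and 107 RPM at 40 mM and 106, 107 and 107 RPM at 2 mM without the drug. For CDT1 it was the untreated groups that overlapped. The helicase activation factor CDC45 had 55.6, 58.8 and 57.4 RPM at 40 mM with the drug and 58.4, 59.6 and 62.0 RPM at 2 mM with it, against 37.5, 38.9 and 38.3 RPM at 40 mM and 36.6, 37.0 and 34.1 RPM at 2 mM untreated. MCM10 had 57.1, 56.1 and 55.6 RPM at 40 mM with gemcitabine and 60.8, 59.8 and 58.9 RPM at 2 mM with gemcitabine, against 39.1, 40.4 and 41.9 RPM at 40 mM and 31.3, 36.4 and 31.3 RPM at 2 mM without it.

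At 2 mM glutamine, the transcripts of all 10 members rose with gemcitabine, with non-overlapping groups for each. Of the 12789 genes tested, 17.5% were called higher and 17.1% lower in this comparison, and 23.2% had all treated libraries above all untreated ones. The loader CDC6 rose most, by 0.90 ± 0.048 on the log2 scale (1.86-fold, limma adjusted p = 1.70e-16), with 104 ± 3.10 RPM in treated cells and 55.2 ± 2.31 RPM in untreated cells (SD, n = 3 each). MCM10 rose by 0.84 ± 0.055 and the activation factor CDC45 by 0.73 ± 0.051. CDC6 ranked 48 and MCM10 61 of 12789 when genes were ordered from the highest difference down. Among the ring subunits MCM5 rose by 0.68 ± 0.038, MCM4 by 0.62 ± 0.029, MCM3 by 0.57 ± 0.030, MCM7 by 0.56 ± 0.032, MCM2 by 0.52 ± 0.032 and MCM6 by 0.39 ± 0.031. The loader CDT1 rose by 0.46 ± 0.041. The limma adjusted p of these 9 members ran up to 7.43e-11. The members' median difference was 0.59, against −0.0011 over all tested genes.

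At 40 mM glutamine all 10 members again rose with gemcitabine, each by a smaller estimate than at 2 mM. In this comparison 14.1% of tested genes were called higher, 16.2% lower, and 19.2% had all treated libraries above all untreated ones, as all 10 members did. CDC45 rose most, by 0.57 ± 0.051 (limma adjusted p = 7.26e-11), with 57.3 ± 1.57 RPM in treated cells and 38.2 ± 0.707 RPM in untreated cells (SD, n = 3 each). MCM10 rose by 0.47 ± 0.055, CDC6 by 0.44 ± 0.048 and CDT1 by 0.39 ± 0.041. The ring subunits MCM4, MCM3, MCM7, MCM2 and MCM5 rose by 0.30 to 0.35, and MCM6 by 0.14 ± 0.031 (limma adjusted p = 0.00093). The members' median was 0.34, against −0.0054 over all tested genes.

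**Figure D2:**
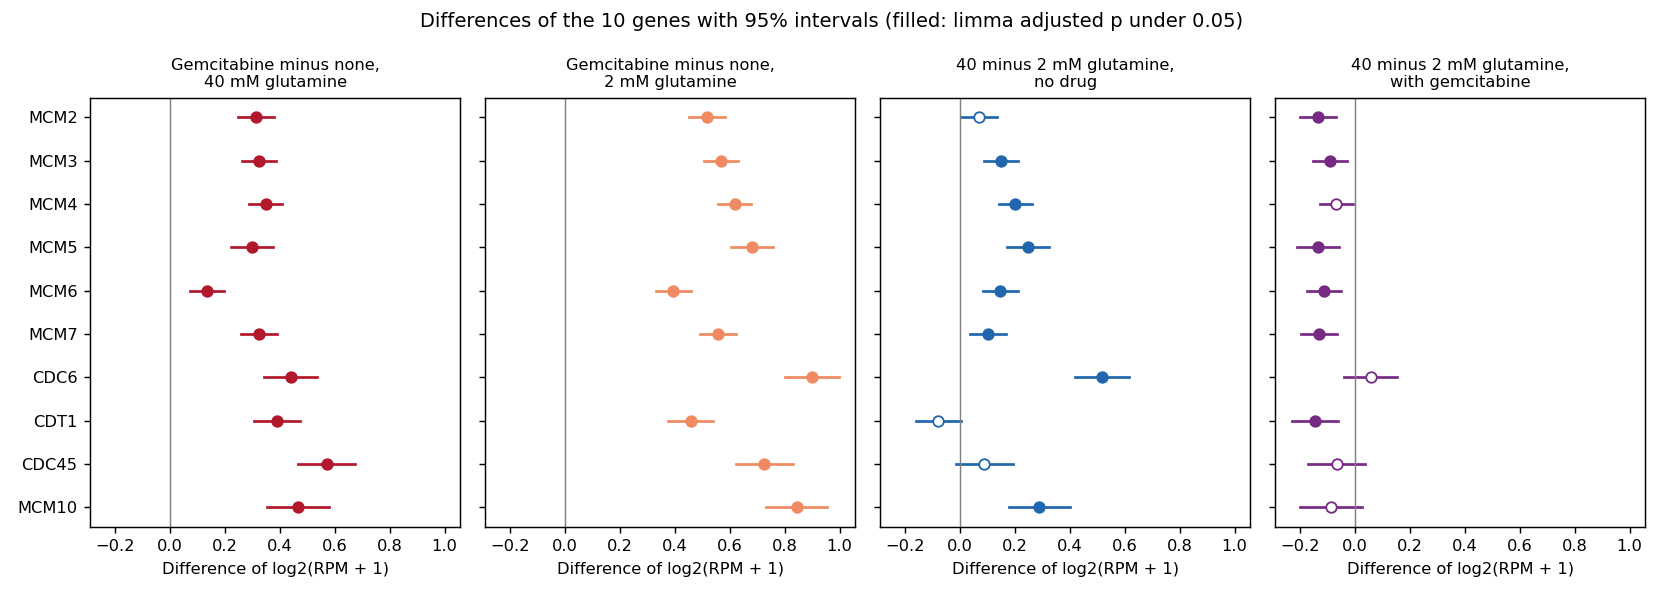
Log2 difference of each member with its 95% confidence interval, in 4 panels from left to right: gemcitabine against none at 40 mM, the same at 2 mM, 40 mM against 2 mM without the drug, and 40 mM against 2 mM with it. Filled points were called by limma. All 10 are filled and above 0 in both drug panels, where 14.1% (40 mM) and 17.5% (2 mM) of tested genes were called higher. In the third panel 7 are filled, all above 0, where 8.41% of tested genes were called higher. In the fourth 6 are filled, all below 0, where 13.0% were called lower, and 0 members were called after scaling by library totals.

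Without the drug, 40 mM glutamine left 7 of the 10 members higher than 2 mM and none lower, where 8.41% of tested genes were called higher. CDC6 differed most, by 0.52 ± 0.048 (1.43-fold, limma adjusted p = 7.89e-10), and ranked 35 of 12789 genes. MCM10 rose by 0.29 ± 0.055 (adjusted p = 0.00025 by limma), MCM5 by 0.25 ± 0.038, MCM4 by 0.20 ± 0.029, MCM3 by 0.15 ± 0.030 and MCM6 by 0.15 ± 0.031. MCM7 rose by 0.10 ± 0.032 (limma adjusted p = 0.024), with overlapping groups, and it lost the call without replicate 3 at 40 mM or without replicate 1 or 3 at 2 mM (limma adjusted p up to 0.20), and with only the 2 untreated groups in the fit (0.059). MCM2 differed by 0.071 ± 0.032 and CDC45 by 0.089 ± 0.051, neither past the threshold. MCM2 passed with voom weights and with scaling by library totals (limma adjusted p = 0.039 in each). CDT1 differed by −0.077 ± 0.041 (limma adjusted p = 0.20), with a 95% interval of −0.16 to 0.0061. For 7 members, MCM3 to MCM6, CDC6, CDC45 and MCM10, all libraries at 40 mM were above all at 2 mM, as 15.4% of tested genes were. The member median was 0.15, against 0.0016 over all tested genes.

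With the drug, 40 mM glutamine left 6 members lower than 2 mM and none higher, against 13.0% of tested genes called lower and 8.62% called higher. MCM2 fell by 0.13 ± 0.032 (limma adjusted p = 0.0024), MCM5 by 0.13 ± 0.038, MCM7 by 0.13 ± 0.032, MCM6 by 0.11 ± 0.031 and MCM3 by 0.091 ± 0.030. CDT1 fell by 0.14 ± 0.041 (limma adjusted p = 0.010). MCM4, MCM10 and CDC45 differed by −0.067, −0.087 and −0.066 without passing, and CDC6 by 0.059 with an interval of −0.038 to 0.16. For 8 members all libraries at 40 mM lay below all at 2 mM, as 20.5% of tested genes did. This order, like the separate drug-treated groups of MCM3 and MCM4, was counted on the deposited scaling only. The calls in this comparison also rest on the authors' scaling. RPM of the 3 drug-treated libraries at 40 mM summed to 971668 to 974406, against 998054 to 1021041 in the other 9 libraries. Rescaled to equal sums, or with quantile normalization, no member passed, and with voom weights only MCM2 did. MCM3 also lost its call without any 1 of 5 libraries (replicate 1 or 2 at 40 mM, or any at 2 mM), MCM5 without replicate 3 at 40 mM, and CDT1 without replicate 1 at 40 mM or replicate 2 at 2 mM (limma adjusted p up to 0.13).

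The drug-by-glutamine term, tested as the drug difference at 40 mM minus that at 2 mM, was below 0 for all 10 members, called lower for 8 and called higher for none. Over all tested genes 2.20% passed this term in either direction and 1.47% were called lower. Without a single library the number of all genes called was 155 to 366, against 281 with all 12 libraries, and the member count stayed at 8. The term uses all 4 groups, which the comparisons above also share. CDC6 had the lowest value, −0.46 ± 0.067 (limma adjusted p = 0.00012), and lay at percentile 0.547 of all tested genes, counted from the lowest value. MCM5 followed with −0.38 ± 0.053 and MCM10 with −0.38 ± 0.078 (limma adjusted p = 6.37e-05 and 0.0057). MCM4, MCM6, MCM3, MCM7 and MCM2 lay between −0.27 and −0.21. CDC45 had −0.15 ± 0.072 (limma adjusted p = 0.30) and CDT1 −0.067 ± 0.058 (limma adjusted p = 0.63), with a 95% interval of −0.18 to 0.051 for CDT1. The members' median was −0.25, against −0.0069 over all tested genes.

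**Figure D3:**
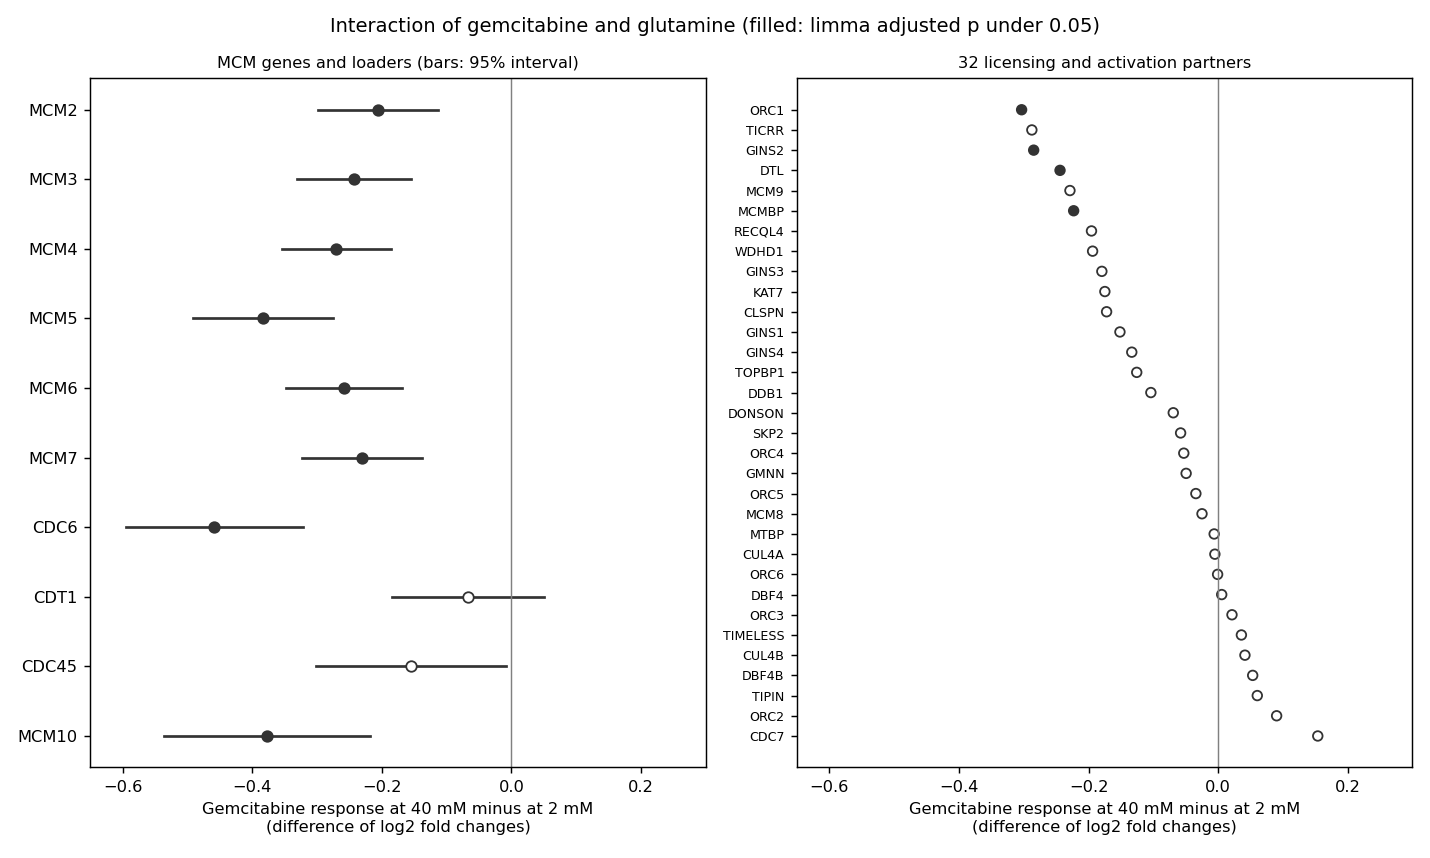
Drug difference at 40 mM minus drug difference at 2 mM glutamine, on the log2 scale, for the 10 members with 95% intervals (left) and the 32 partners (right); filled points were called. All 10 members lie below 0 and 8 are called. Of the 32 partners 4 are called, all below 0, where 1.47% of tested genes were called below 0.

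Across the 4 groups, every drug-treated group was above every untreated group for all 10 members. The share of all tested genes with that order across the 4 groups was not counted. Within 1 glutamine level, a looser condition, the order held for 23.2% of tested genes at 2 mM and 19.2% at 40 mM. The share with the order across all 4 groups can therefore be at most 19.2%. Gemcitabine at 40 mM against no drug at 2 mM gave 10 of 10 members called higher by limma, where 18.7% of tested genes were. Their differences ran from 0.28 (MCM6) to 0.96 (CDC6). Gemcitabine at 2 mM against no drug at 40 mM gave 10 of 10 as well, where 20.3% were, from 0.25 (MCM6) to 0.64 (CDC45). The order of group means was 2 mM with drug, 40 mM with drug, 40 mM without and 2 mM without for 8 members. CDC6 had its highest mean at 40 mM with the drug and CDT1 its lowest at 40 mM without it, and each of those neighbours was within the spread.

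Set against the mean of the 6 ring subunits on the log2 scale, CDC6 was at −1.45, −1.54 and −1.62 at 40 mM with the drug and at −1.75, −1.67 and −1.70 at 2 mM with the drug. It was at −1.76, −1.66 and −1.64 at 40 mM without the drug and at −1.96, −2.06 and −2.12 at 2 mM without it. The libraries at 2 mM without the drug were the lowest for CDC6. CDT1 on the same scale was at −1.26, −1.27 and −1.19 at 40 mM with the drug and −1.22, −1.18 and −1.22 at 2 mM with the drug, against −1.28, −1.44 and −1.29 at 40 mM and −1.08, −1.13 and −1.11 at 2 mM without it. For CDT1 the libraries at 2 mM without the drug were the highest.

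**Figure D4:**
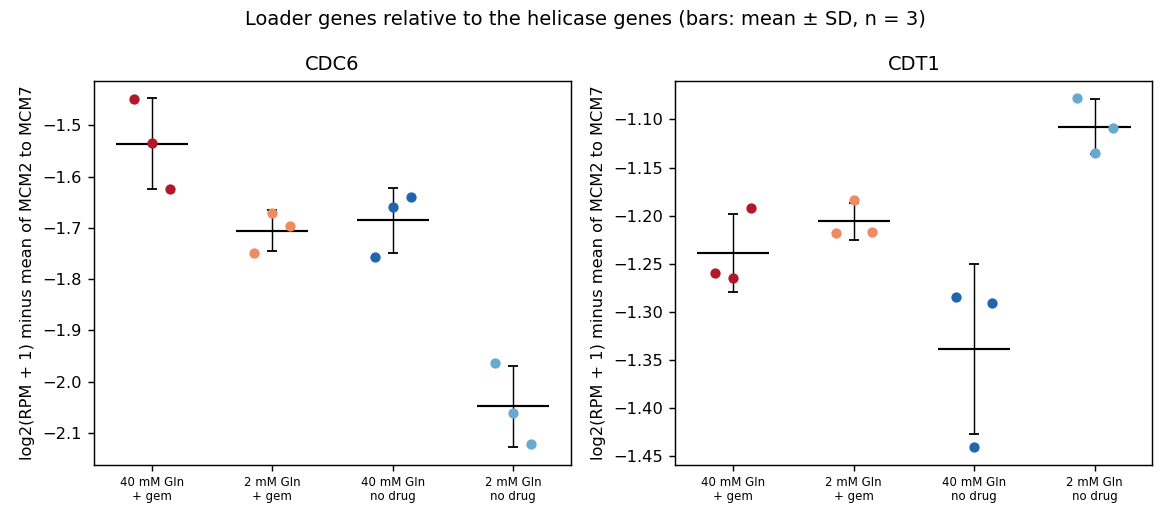
CDC6 and CDT1 in each library as the log2 level minus the mean log2 level of MCM2 to MCM7, one point per library by group. At 2 mM without gemcitabine CDC6 is lowest (−1.96 to −2.12) and CDT1 highest (−1.08 to −1.13).

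With gemcitabine, 17.5% of tested genes were called higher and 17.1% lower at 2 mM, and 14.1% and 16.2% at 40 mM. Of 32 other genes of origin licensing and helicase activation, 23 rose and 2 fell with gemcitabine at 2 mM (median 0.32). At 40 mM 20 of these partners rose and 2 fell (median 0.22). CLSPN, the checkpoint mediator claspin, had the largest of these changes at both levels, 0.71 ± 0.047 at 2 mM and 0.54 ± 0.047 at 40 mM. It had 110 ± 6.09 RPM at 40 mM with the drug and 103 ± 2.76 RPM at 2 mM with the drug, against 75.6 ± 4.37 RPM at 40 mM and 62.4 ± 2.88 RPM at 2 mM without it (SD, n = 3 each). DTL, which with CUL4 and DDB1 targets CDT1 protein for destruction, rose by 0.64 ± 0.045 at 2 mM and by 0.40 ± 0.045 at 40 mM. The GINS subunits GINS2 and GINS1, partners of CDC45, rose by 0.57 ± 0.046 and 0.54 ± 0.045 at 2 mM, and at 40 mM GINS1 rose by 0.39 and the origin recognition subunit ORC6 by 0.45. The 2 partners that fell at both levels were CUL4A, by 0.20 at each, and DDB1, by 0.08 at 2 mM and 0.18 at 40 mM, both parts of that ligase. The DDB1 call at 2 mM was close to the threshold (limma adjusted p = 0.041).

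With glutamine and no drug, 15 partners were higher at 40 mM and none lower (median 0.11), where 8.41% of tested genes were called higher. DTL rose by 0.30, GINS2 by 0.28, CLSPN by 0.27 and TIMELESS, a fork protection factor, by 0.25 ± 0.045 (limma adjusted p = 0.00017). With the drug, 4 of the 32 partners were higher and 2 lower at 40 mM, where 8.62% of tested genes were called higher and 13.0% lower. The partners' median was 0.023, against −0.0015 over all tested genes. TIMELESS rose by 0.28, with 85.9 ± 3.49 RPM (SD, n = 3) at 40 mM against 70.5 ± 3.55 RPM (SD, n = 3) at 2 mM, and ORC6 rose by 0.18. GINS4 fell by 0.20 ± 0.047 and DDB1 by 0.12 ± 0.029, a call that DDB1 lost with voom weights, with equal library sums and with quantile normalization (limma adjusted p = 0.078, 0.12 and 0.88). In the drug-by-glutamine term 1.47% of tested genes were called lower. Of the partners, ORC1, GINS2, DTL and MCMBP, an MCM-binding protein, were called, all lower, at −0.30, −0.28, −0.24 and −0.22. Of these GINS2 (limma adjusted p = 0.013) kept the call in every alternative run, and the others lost it in at least some: 1 partner passed without replicate 2 at 40 mM with the drug, replicate 1 at 2 mM with the drug or replicate 1 at 2 mM without it, and 2 without each of 4 other libraries (replicate 3 at 40 mM with the drug, 2 or 3 at 2 mM with it, and 3 at 40 mM without it).

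Most genes of an S phase list and of a G2/M list also rose with the drug. Of 30 other S phase genes in the table, 30 rose at 2 mM with the drug (median 0.39) and 25 at 40 mM (median 0.28). Of 50 G2/M genes 39 rose and 1 fell at 2 mM (median 0.22) and 47 rose at 40 mM (median 0.34). Over all tested genes 17.5% were called higher and 17.1% lower at 2 mM, and 14.1% and 16.2% at 40 mM. With glutamine alone, 1076 of 12789 tested genes were called higher at 40 mM and 1166 lower. Of the lists, 13 S phase genes were higher and none lower, while 3 G2/M genes were higher and 15 lower. At 40 mM against 2 mM with the drug, 8.62% of tested genes were called higher and 13.0% lower. There 2 S phase genes were higher and 4 lower, and 15 G2/M genes were higher and none lower. In the drug-by-glutamine term 188 of 12789 tested genes were called lower and 93 higher. Of the lists, 7 S phase genes were lower and none higher, and 8 G2/M genes were higher and none lower. Single libraries moved these counts: without replicate 3 at 40 mM and no drug, 7 S phase genes passed with glutamine alone and 4 in the drug-by-glutamine term. That term also gave 4 S phase genes without replicate 1 at 40 mM with the drug, replicate 2 at 2 mM with the drug or replicate 1 at 2 mM without it, and 5 G2/M genes without replicate 1 at 2 mM with the drug. Without replicate 2 at 2 mM and no drug, 11 G2/M genes passed with glutamine alone. The rise with the drug was therefore not limited to the members or to S phase genes, and what the G2/M levels contribute was not tested. The lists overlap in no gene with the 10 members, and share the libraries with them.

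**Figure D5:**
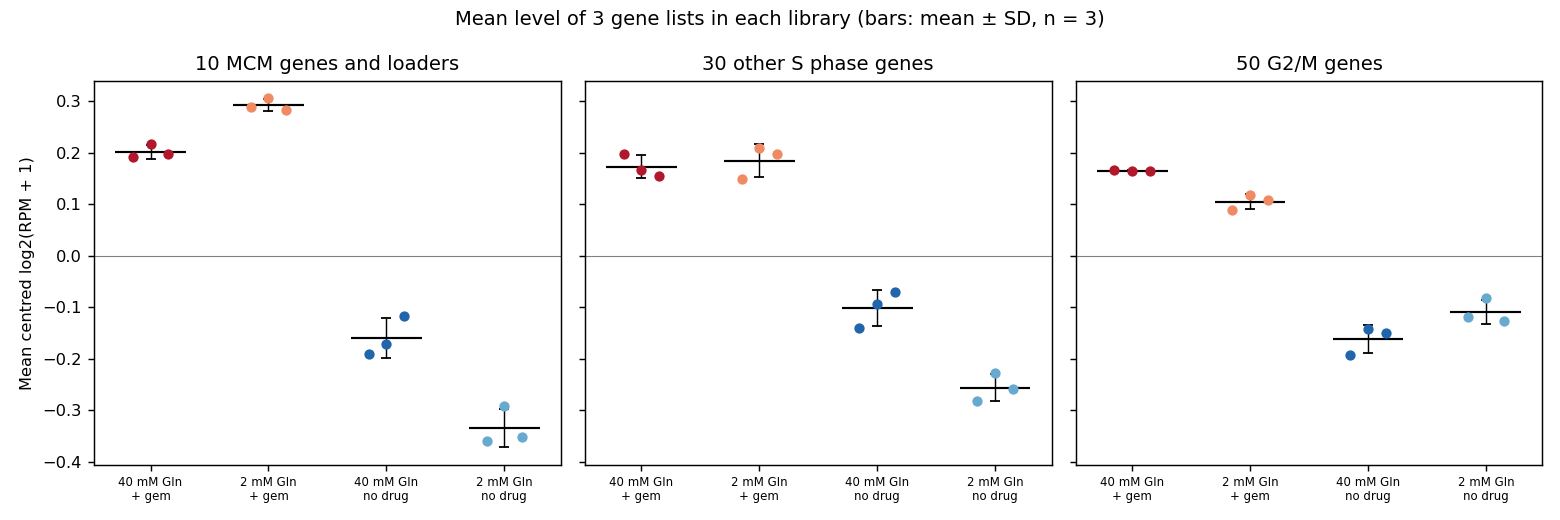
Mean of the centred log2 levels of the 10 members, 30 other S phase genes and 50 G2/M genes in each library (log2 scale, 0 is the mean over the 12 libraries). Members and S phase genes are lowest at 2 mM without the drug (members −0.36 to −0.29), and G2/M genes are lowest at 40 mM without it (−0.19 to −0.14).

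Across the 12 libraries, the genes whose log2 level was most like the mean of the members (Pearson r, of 6385 candidates at or above the median level) were PCNA, the sliding clamp (r = 0.994), CDCA5, a cohesion factor (0.990), RRM2, a subunit of ribonucleotide reductase (0.989), CTPS1, a CTP synthase (0.987), ZWINT, a kinetochore protein (0.986), and RFWD3, a ubiquitin ligase (0.985). An r over 0.9 was reached by 262 candidates (4.10%), and all points share the 4 group levels. Each member's r with the mean of the other 9 was 0.997 for MCM4, the highest, and 0.896 for CDT1 and 0.924 for CDC6, the lowest. PCNA differed by 0.67 with the drug at 2 mM and 0.33 at 40 mM, and by 0.21 at 40 mM against 2 mM without the drug.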

How the data were processed

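A silica column kit was used for total RNA and a company made and sequenced the libraries, per the labels' protocols. Aligner, counter, strand setting and genome build: not given in the sources used here. The deposited values are log2 of RPM, reads per 1000000 after a further scaling of each library (the RPM of the listed genes sum to 0.972 to 1.02 times 1000000), plus a pseudocount of 1 RPM, read from the values themselves: whole reads were recovered for 100% of them within 0.05 read. Genes at or above 1 RPM in at least 3 of 12 libraries were tested on the deposited log2 values with limma 3.58.1 (R 4.3.3), as 4 group means with a mean-variance trend, two-sided, in 7 comparisons. The adjusted p is Benjamini-Hochberg over 12789 genes, with a threshold of 0.05. Count models were not used, and voom weights computed from the recovered reads were run in limma instead. Counting error is 3.57% of the value at the lowest member count (784 reads) and 0.669% at the highest (22335 reads). Intervals are 95%. The script was tested on simulated data.

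The members, gene lists and comparisons were chosen with earlier results of these data known. Named partners are the 4 with the smallest p in each of the 4 comparisons of 1 factor, and those past the threshold in the drug-by-glutamine term. Alternatives were another scaling (library totals, quantile), voom weights, a pseudocount of 0.25 RPM, no filter, only the compared groups, a replicate block and each library left out. The same alternatives for partners and lists were chosen after seeing the data.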

Additional observations from a re-analysis of the deposited data

Results flagged for a closer look

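The drug difference at 40 mM glutamine minus that at 2 mM passed the limma test of that difference itself for 8 members and 4 partners. All were lower, as 1.47% of tested genes were. The values on the log2 scale were −0.46 for CDC6, −0.38 for MCM5, −0.38 for MCM10, −0.27 for MCM4, −0.26 for MCM6, −0.24 for MCM3, −0.23 for MCM7 and −0.21 for MCM2. Among partners they were −0.30 for ORC1, −0.28 for GINS2, −0.24 for DTL and −0.22 for MCMBP. Of these partners only GINS2 kept the call in every alternative run, and of the members only MCM2 lost it, with quantile normalization. Each drug difference that enters these values was above 0 at both glutamine levels, so the term gives a smaller difference at 40 mM than at 2 mM. Groups of 3 libraries are too small to test a single library as an outlier.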

How the results depend on the processing

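With gemcitabine, the 6 members called lower at 40 mM than at 2 mM became 1 with voom weights, 0 with scaling by library totals and 0 with quantile normalization. Leaving out 1 library gave 4 to 6 there, with MCM3, MCM5 or CDT1 losing the call. Without the drug, the 7 members called higher at 40 mM became 6 to 7 on leaving out 1 library, 6 with only the compared groups (MCM7 lost), and 8 with voom weights and with library totals (MCM2 gained). The drug-by-glutamine count was 8 without any 1 library, and was 7 with quantile normalization (MCM2, limma adjusted p = 0.051). The drug counts stayed at 10 of 10 at both glutamine levels in every alternative run. No value of a member changed sign past the threshold.

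Replicate numbers showed no sign of pairing the libraries. Same-numbered libraries of different groups had deviations correlated at −0.077 to 0.048, and other-numbered ones at −0.080 to 0.092. With 3 libraries per group this cannot show that there was no pairing. With the replicate number as a block, the drug-by-glutamine count was 8 and no member count moved. For the lists, 4 partners in the drug-by-glutamine term became 1 with voom weights, 2 with library totals and 1 with quantile normalization. As deposited, 15 G2/M genes passed at 40 mM against 2 mM with the drug, all higher, where 8.62% of tested genes were called higher. Counted in either direction, the G2/M genes that passed there became 26, 26 and 25 under the same settings. Quantile normalization gave 13 G2/M genes in the drug-by-glutamine term, against 8. Under those settings the share of all called genes that were higher at 40 mM with the drug was 67.9%, 68.2% and 50.1%, against 39.9% as deposited. In the drug-by-glutamine term it was 58.8%, 58.9% and 54.7%, against 33.1%. With voom weights and library totals it was 63.1% and 62.9% for the drug at 40 mM, against 46.6%, 60.8% and 61.2% for glutamine alone, against 48.0%, and 65.8% in both for the drug at 40 mM against no drug at 2 mM, against 46.9%. The cause was not tested.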
